A study of Mus musculus with 6 samples.

Results

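Messenger RNA of the pyruvate dehydrogenase complex, its kinases and its phosphatases was compared between livers of mice fed regular chow (control) and soy-enriched chow (soy). The family was taken as 10 genes, the kinases Pdk1, Pdk2, Pdk3 and Pdk4, the phosphatases Pdp1 and Pdp2, and the subunits Pdha1, Pdhb, Dlat and Pdhx, and its probes were those that carry a RefSeq accession of one of these genes. All 10 genes were found, on 16 of the 56605 probes tested, among 22911 genes with a symbol. The control group was 3 male mice given granulated regular food as 100% of the diet, and the soy group was 3 male mice given 75% regular food with 25% soy bean powder, both from 12 weeks of age and for 4 weeks. Both diets were eaten ad libitum and no fast before collection is mentioned, and strain and the hour of collection are not given in the sources used here. RNA from a piece of the right liver lobe of each mouse was labelled with Cy3 and hybridized to 1 single-colour Agilent G3 Mouse Gene Expression v.2 array. The values are normalized signals on the log2 scale, and a change is the soy mean minus the control mean. In bulk tissue, fewer cells of a type and less RNA per cell cannot be told apart. Signals of different probes are not compared as RNA levels, since each probe binds its target differently. The brightest probe or gene is only the one with the highest signal.

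The pyruvate dehydrogenase complex sits in the mitochondrial matrix and turns pyruvate into acetyl-CoA, which feeds the citric acid cycle or, after export as citrate, fatty acid synthesis. The Pdk kinases phosphorylate its E1 alpha subunit and switch the complex off, and the Pdp phosphatases remove the phosphate and switch it on again. In liver, Pdk4 is the kinase known for its induction in fasting, when fatty acids are burned and pyruvate is spared for glucose synthesis.

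Of the 10 genes, only Pdk4 passed both thresholds, which were an adjusted p under 0.05 (limma, Benjamini-Hochberg over all probes) and a fold change above 1.5 or under 0.66. It was higher in soy, and 0 genes of the family passed in the lower direction. Of all 22911 genes, 0.340% passed higher and 0.192% lower. Of the 16 probes, 1 passed, beside 0.350% of all probes (0.208% higher and 0.141% lower), and the groups did not overlap on 4, beside 18.0% of all probes. By the brightest probe, the median change of the 10 genes was -0.06, beside -0.01 over all genes, with 4 of the changes above 0 and 6 below (of these, Pdk3 and Dlat turned above 0 under another scaling). The groups did not overlap for Pdk4 and Pdp1 (higher in soy) and for Pdp2 and Pdhx (lower), as they did not for 9.68% and 10.8% of all genes.

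Pdk4 (NM_013743) gave normalized signals of 9.01, 8.43 and 8.42 in control livers, against 10.52, 10.63 and 10.32 in soy livers. All soy arrays lay above all control arrays, and the gap between the groups was wider than the spread within either, 0.34 (SD, n = 3) in control and 0.16 in soy. The change of 1.87 (95% confidence interval 1.45 to 2.29, limma adjusted p = 0.0151) corresponds to a 3.65-fold higher signal. Before any correction, the median spot intensity was 618, 353 and 330 in control and 1440, 1365 and 1291 in soy livers. The probe was thus well above background on all 6 arrays, and the groups were apart in the raw scan as well.

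The arrays lay on 3 slides. Within slide 1, which held control 1, control 2 and soy 1, the Pdk4 difference was 1.79, and within slide 3, which held control 3 and soy 3, it was 1.90. Slide 2 held soy 2 alone and gives no value. With slide as a block, where soy 2 adds nothing to the change, it was 1.84 and did not pass (adjusted p = 0.102). The call was also lost without soy 1 (adjusted p = 0.0686), soy 2 (0.0705) or soy 3 (0.0520), with changes of 1.86, 1.81 and 1.95. It was kept without each control array, at changes of 1.76 to 2.05.

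**Figure D1:**
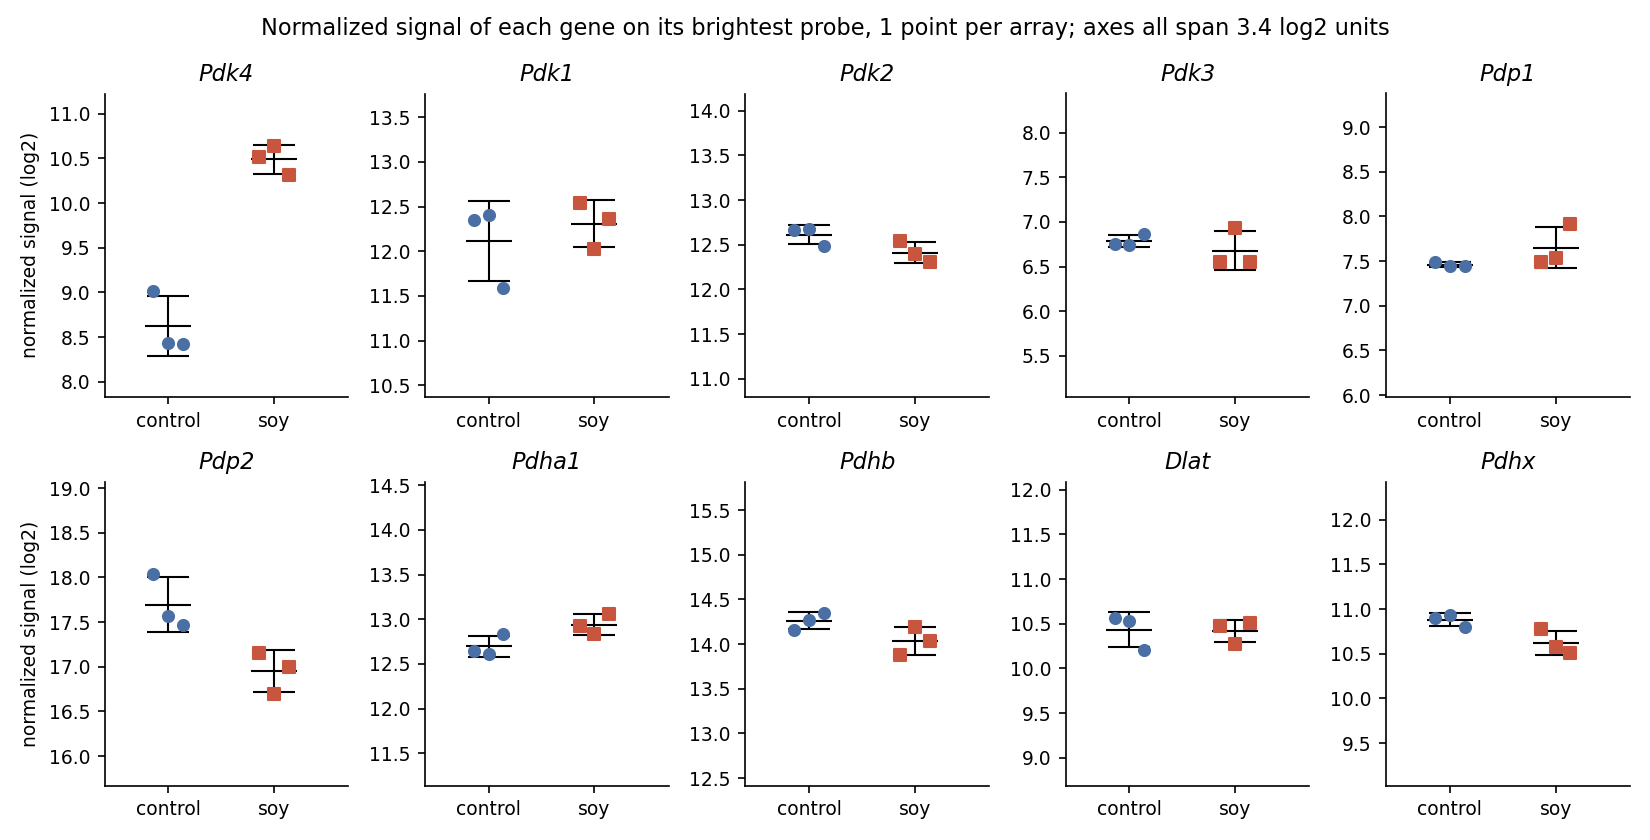
Normalized signal (log2, vertical axis) of each of the 10 genes on its brightest probe, with 1 point per array, control as circles and soy as squares, and bars for the mean and SD (n = 3). Axes have one span but different positions; the groups are far apart for Pdk4, and Pdp2 soy values from 16.70 to 17.15 lie below its control values from 17.47 to 18.04.

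The promoter of Pdk4 is shown because Pdk4 was the member that passed, beside that of Pdk2, the other main liver kinase, which did not, and that of Pdp2, whose brightest probe separated the groups without passing. Each line gives the 250 bases before the RefSeq start site, 5′ to 3′ in the direction of the gene, and excludes transcribed bases. The windows are chr6:5496279-5496528 (minus strand) for Pdk4, chr11:95041372-95041621 (minus strand) for the upstream start of Pdk2, and chr8:104591222-104591471 (plus strand) for Pdp2, all in GRCm38.p6. Capitals mark the CCAAT box, the element bound by the factor NF-Y, as CCAAT or, where it lies on the other strand, as ATTGG.
Pdk4: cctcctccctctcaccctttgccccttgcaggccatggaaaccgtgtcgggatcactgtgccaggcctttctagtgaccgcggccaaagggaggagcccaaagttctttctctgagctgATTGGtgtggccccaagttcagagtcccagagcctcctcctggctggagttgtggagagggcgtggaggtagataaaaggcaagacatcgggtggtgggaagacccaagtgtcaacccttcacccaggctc
Pdk2: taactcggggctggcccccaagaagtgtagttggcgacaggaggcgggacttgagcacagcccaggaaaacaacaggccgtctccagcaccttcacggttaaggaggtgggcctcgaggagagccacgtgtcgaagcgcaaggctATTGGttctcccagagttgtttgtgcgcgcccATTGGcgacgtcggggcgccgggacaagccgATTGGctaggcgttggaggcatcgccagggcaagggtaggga
Pdp2: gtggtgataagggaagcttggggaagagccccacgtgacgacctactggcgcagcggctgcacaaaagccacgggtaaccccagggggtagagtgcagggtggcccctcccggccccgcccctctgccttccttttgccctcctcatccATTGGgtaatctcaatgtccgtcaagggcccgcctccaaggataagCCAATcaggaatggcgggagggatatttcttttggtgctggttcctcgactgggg
The Pdk4 window held 1 CCAAT box, at -131 to -127 from the start, the Pdk2 window held 3 and the Pdp2 window 2. RefSeq windows were found for 9 of the 10 genes (11 windows, all but Pdp1), and 5 of the 11 windows, each of a different gene, held CCAAT on either strand, beside 33.8% of the 32851 mouse promoter windows. On either strand, no window of the family held TATAAA (12.4% of all windows), the nuclear receptor element AGGTCA (14%), the repeat AGGTCANAGGTCA that contains it (0.0335%), or the forkhead element GTAAACA (3.17%). The glucocorticoid receptor element AGAACA (16.1%) was found in Pdk1 only. These letters are a description of the windows and say nothing of binding, here or farther from the start.

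The other 3 kinases did not pass. Pdk2 (NM_133667), the widely expressed kinase, gave 12.66, 12.68 and 12.49 in control and 12.54, 12.39 and 12.31 in soy livers, and the groups overlapped. Its change was -0.20 (95% confidence interval -0.45 to 0.05, adjusted p = 0.546). The upper end of this interval lay far below the lower end of that of Pdk4.

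Pdk1 (NM_172665), the kinase known for its induction by hypoxia, has 4 probes. Soy 1 was the highest array on 3 of them, but not on the probe with a negative change. The brightest gave 12.35, 12.40 and 11.59 in control and 12.54, 12.02 and 12.36 in soy livers, a change of 0.19 (95% confidence interval -0.36 to 0.74, adjusted p = 0.803). The changes on the others were 0.12, 0.06 and -0.13, and none passed. Control 3 was the lowest array on the 2 brightest probes and the highest, at 10.48, on the probe with the negative change, and without control 3 the brightest probe changed by -0.07.

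Pdk3 (NM_145630), a kinase best known from testis, was near the limit of the array. Its signals were 6.75, 6.74 and 6.87 in control and 6.55, 6.93 and 6.55 in soy livers, well above background on control 3 but on no other array. No fold is given, the difference did not pass (adjusted p = 0.794), and its sign turned under a 75th-percentile shift.

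To compare Pdk4 with the rest of its family on the same arrays, the mean of Pdk1, Pdk2 and Pdk3 was subtracted from it on each array. In control livers this difference was -1.58, -2.17 and -1.90, and in soy livers it was -0.02, 0.19 and -0.09. The groups did not overlap, and Pdk4 moved by 1.91 relative to the other kinases. Without Pdk3, whose probe was near background, the shift was 1.87. Groups that do not overlap give p = 0.1 in a two-sided exact permutation test. That is the smallest p that 20 assignments of 3 and 3 arrays allow, so this permutation test cannot pass 0.05 here. Within slide 1 this shift was 1.85, and within slide 3 it was 1.81.

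Neither phosphatase passed. Pdp2 (NM_001024606), the phosphatase catalytic subunit known for its response to insulin, gave 18.04, 17.57 and 17.47 in control and 17.15, 16.70 and 17.00 in soy livers on its brightest probe. All soy arrays were below all control arrays, and the change was -0.74 (95% confidence interval -1.17 to -0.32, adjusted p = 0.172), the most negative of the family. Its other probe gave 11.69, 11.80 and 11.86 in control and 11.39, 11.70 and 11.61 in soy livers, and there the groups overlapped, with a change of -0.22 (95% confidence interval -0.49 to 0.05, adjusted p = 0.524). The direction was negative on both probes and within both slides (-0.65 on slide 1 and -0.47 on slide 3, brightest probe). Which of the probes follows the Pdp2 transcript better was not tested.

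Pdp1 (NM_001098230), the catalytic subunit that calcium stimulates, gave 7.49, 7.44 and 7.44 in control and 7.50, 7.54 and 7.91 in soy livers on its brightest probe. The groups did not overlap, but control 1 and soy 1 nearly met, and the change of 0.19 (95% confidence interval -0.11 to 0.49, adjusted p = 0.632) came mostly from soy 3, without which it was 0.06. The other Pdp1 probe (NM_001033453) was well above background on control 1 alone, and no change is given for it.

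**Figure D2:**
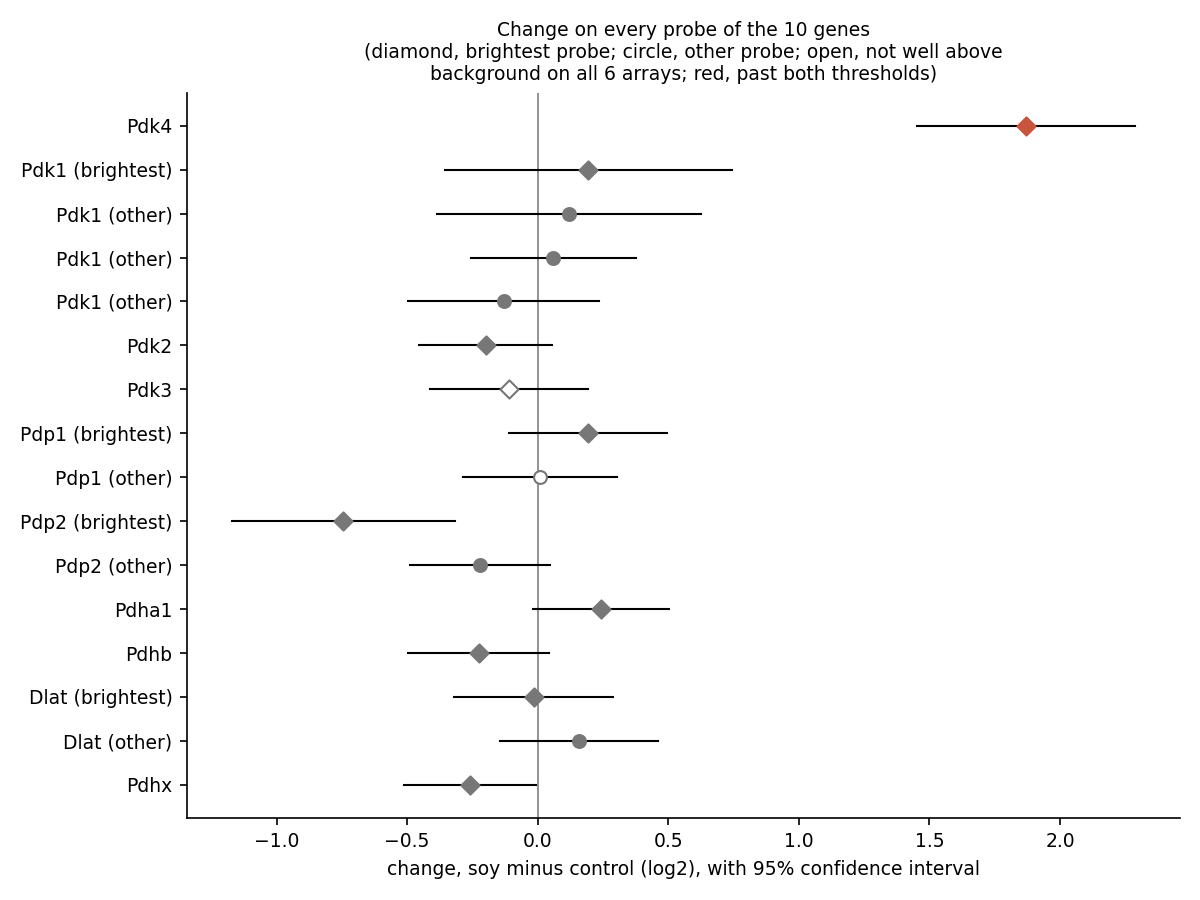
Change on each of the 16 probes of the family (soy minus control, log2, horizontal axis) with its 95% confidence interval from limma; diamonds are the brightest probe of a gene, circles other probes, and open symbols probes not well above background on all 6 arrays. Pdk4 at 1.87 stands alone to the right, and of the other probes those of Pdp2 (-0.74) and Pdhx (-0.26) have intervals that lie below 0 although neither passed after adjustment.

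None of the 4 subunits passed, and their median change was -0.12. Pdha1 (NM_008810), the E1 alpha subunit that carries the phosphorylation sites, gave 12.65, 12.61 and 12.83 in control and 12.92, 12.83 and 13.06 in soy livers. Its groups met at 12.83, and the change was 0.24 (95% confidence interval -0.02 to 0.50, adjusted p = 0.472). Pdhb (NM_024221), the E1 beta subunit that pairs with it, gave 14.16, 14.27 and 14.35 in control and 13.88, 14.19 and 14.04 in soy livers, a change of -0.23 (95% confidence interval -0.50 to 0.04, adjusted p = 0.516) with overlap. The E1 partners thus had changes of opposite sign, neither of which passed.

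Pdhx (NM_175094), the protein that anchors the E3 enzyme to the core, gave 10.90, 10.94 and 10.80 in control and 10.78, 10.58 and 10.51 in soy livers. The groups were apart by a narrow margin, and the change was -0.26 (95% confidence interval -0.51 to -0.01, adjusted p = 0.422). Dlat (NM_145614), the E2 acetyltransferase of the core, gave 10.57, 10.53 and 10.21 in control and 10.47, 10.28 and 10.50 in soy livers, and changed by -0.02 (95% confidence interval -0.32 to 0.29, adjusted p = 0.977). Its other probe changed by 0.16 (adjusted p = 0.698), and the sign of the brightest probe turned under 6 of 20 other settings, and the mean change of both probes was 0.071, so no direction is given for it. On the brightest probes, no interval of a subunit reached below -0.51 or above 0.50.

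Partners of the complex outside the 10 genes did not pass. Dld (NM_007861), the E3 dehydrogenase shared with related complexes, changed by 0.07, and Pdpr, the regulatory subunit of the phosphatase, by 0.03, and both signs turned without control 3. Pdha2, the testis form of E1 alpha, was well above background on no array. Of 13 genes that supply the cofactors of the complex (thiamine, lipoate and coenzyme A), 0 passed, beside 0.532% of all genes. Their median change was 0.04. The largest changes among those well above background on every array were in Slc25a42, the mitochondrial coenzyme A carrier (0.49, adjusted p = 0.323), Lipt1, a lipoyltransferase (0.37, adjusted p = 0.219), and Pank1, a pantothenate kinase (-0.28, adjusted p = 0.378).

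Among 17 genes of pyruvate supply and of its other fates, 0 passed, beside 0.532% of all genes, and the median was 0.03. Pck1, the gluconeogenic phosphoenolpyruvate carboxykinase, gave 17.81, 17.85 and 17.54 in control and 17.07, 16.74 and 16.84 in soy livers. Its groups were apart, and the change of -0.84 (95% confidence interval -1.15 to -0.54, adjusted p = 0.0568) missed the threshold. It passed under 6 of 21 other settings, among which the within-slide differences have no test. Slc16a1, a transporter of lactate and pyruvate, changed by 0.73 (adjusted p = 0.219) and Me1, the cytosolic malic enzyme that makes pyruvate from malate, by 0.67 (adjusted p = 0.152). The mitochondrial pyruvate carrier genes Mpc1 and Mpc2, chosen after their values were seen, changed by 0.16 and 0.10 without passing.

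The sister complexes that decarboxylate other 2-oxoacids held 9 genes, of which 0 passed, beside 0.532% of all genes, with a median of -0.00. Bckdk, the kinase of the branched-chain complex and a relative of the Pdk enzymes, gave 8.80, 9.43 and 9.55 in control and 9.82, 9.98 and 9.89 in soy livers. The groups were apart and the change was 0.64 (95% confidence interval 0.19 to 1.09, adjusted p = 0.262). Dhtkd1, of lysine breakdown, changed by 1.06 (adjusted p = 0.446) with control values from 9.64 to 11.72, and Bckdhb, a branched-chain E1 subunit, by -0.26 (adjusted p = 0.752).

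Of 9 genes that carry acetyl-CoA into the citric acid cycle or out of the mitochondrion, 1 passed higher and 1 lower in soy, beside 0.340% and 0.192% of all genes, and the median change was 0.25 (-0.01 over all genes). Crat, the carnitine acetyltransferase that exchanges acetyl groups between coenzyme A and carnitine, gave 11.04, 10.40 and 11.48 in control and 12.78, 12.71 and 12.95 in soy livers. It rose by 1.84 (SE 0.25, adjusted p = 0.0388), and on its dimmer probe the change was 0.66 (adjusted p = 0.117). Acss2, which makes cytosolic acetyl-CoA from acetate, fell on its dimmer probe from 12.17, 12.26 and 11.78 in control to 10.89, 10.61 and 10.55 in soy livers, by 1.38 (SE 0.16, adjusted p = 0.0236). Its brightest probe changed by about as much, -1.36, but with a control spread of 0.58 (SD, n = 3) it did not pass (adjusted p = 0.110).

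Of 21 regulators known to act on Pdk genes, Stat5a alone had a probe that passed (higher, as for 0.340% of all genes), and its probes disagreed. The dimmer probe gave 9.44, 9.66 and 9.67 in control and 10.37, 10.56 and 10.79 in soy livers (change 0.98, adjusted p = 0.0396), whereas the brightest changed by -0.35 (adjusted p = 0.484), so no direction is given for the gene. Ppara, the fatty acid receptor that drives Pdk4 in fasting liver, changed by 0.07 (95% confidence interval -0.40 to 0.53, adjusted p = 0.929) and its sign turned under 3 other settings. The largest changes of the list were in Pparg, the adipogenic receptor, at 1.25 (95% confidence interval 0.73 to 1.78, adjusted p = 0.0811), Myc, the growth regulator, at 1.17 (adjusted p = 0.165), and Srebf1, a regulator of lipid synthesis, at 0.68 (adjusted p = 0.512). The groups were apart for Pparg and Myc and overlapped for Srebf1, and none of the 3 passed. Ppara, Pparg, Myc and Srebf1 were chosen after their values were seen, and the median of the 21 was -0.01.

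Of 19 fatty acid genes known to rise together with Pdk4 in fasting liver, 4 passed higher and 0 lower, beside 0.340% and 0.192% of all genes, and their median change was 0.54. The groups were apart with soy higher for 14 and with soy lower for 2, beside 9.68% and 10.8% of all genes. The list was written with earlier results of these samples known, and its counts are not independent evidence of its direction.

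Cyp4a14, a fatty acid hydroxylase, gave 6.93, 6.72 and 7.26 in control and 9.78, 10.21 and 10.74 in soy livers. It remained past the thresholds in every fit with 1 array left out (adjusted p from 0.0122 to 0.0430). Its control signals were near background, well above it on 2 of the 3 arrays, and its change ranged from 2.96 to 4.60 over the other settings. Acot1, a cytosolic acyl-CoA thioesterase, gave 12.58, 11.91 and 12.86 in control and 14.18, 14.20 and 14.32 in soy livers and rose by 1.78 (SE 0.22, adjusted p = 0.0316). Acot2, its mitochondrial neighbour, gave 8.34, 8.30 and 8.73 in control and 9.93, 9.92 and 9.87 in soy livers and rose by 1.44 (SE 0.13, adjusted p = 0.0130). Acot1 and Acot2 are close copies of each other, and whether their probes share signal was not tested. Acaa1b, a peroxisomal thiolase, gave 15.50, 15.21 and 15.60 in control and 16.56, 16.59 and 16.55 in soy livers and rose by 1.13 (SE 0.12, adjusted p = 0.0194).

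Not every gene of this list moved like Pdk4, and 2 are given here that were chosen after their values were seen. Angptl4, the lipoprotein lipase inhibitor that fasting raises, gave 16.11, 15.94 and 16.14 in control and 15.49, 15.30 and 15.49 in soy livers, a change of -0.64 (95% confidence interval -0.89 to -0.39, adjusted p = 0.0689). Cpt1a, which admits long-chain fatty acids to the mitochondrion, changed by -0.51 (95% confidence interval -0.86 to -0.16, adjusted p = 0.256). The change of Angptl4 passed under 3 of 21 other settings, and that of Cpt1a under none of them. The within-slide differences, counted among these settings, have no test.

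**Figure D3:**
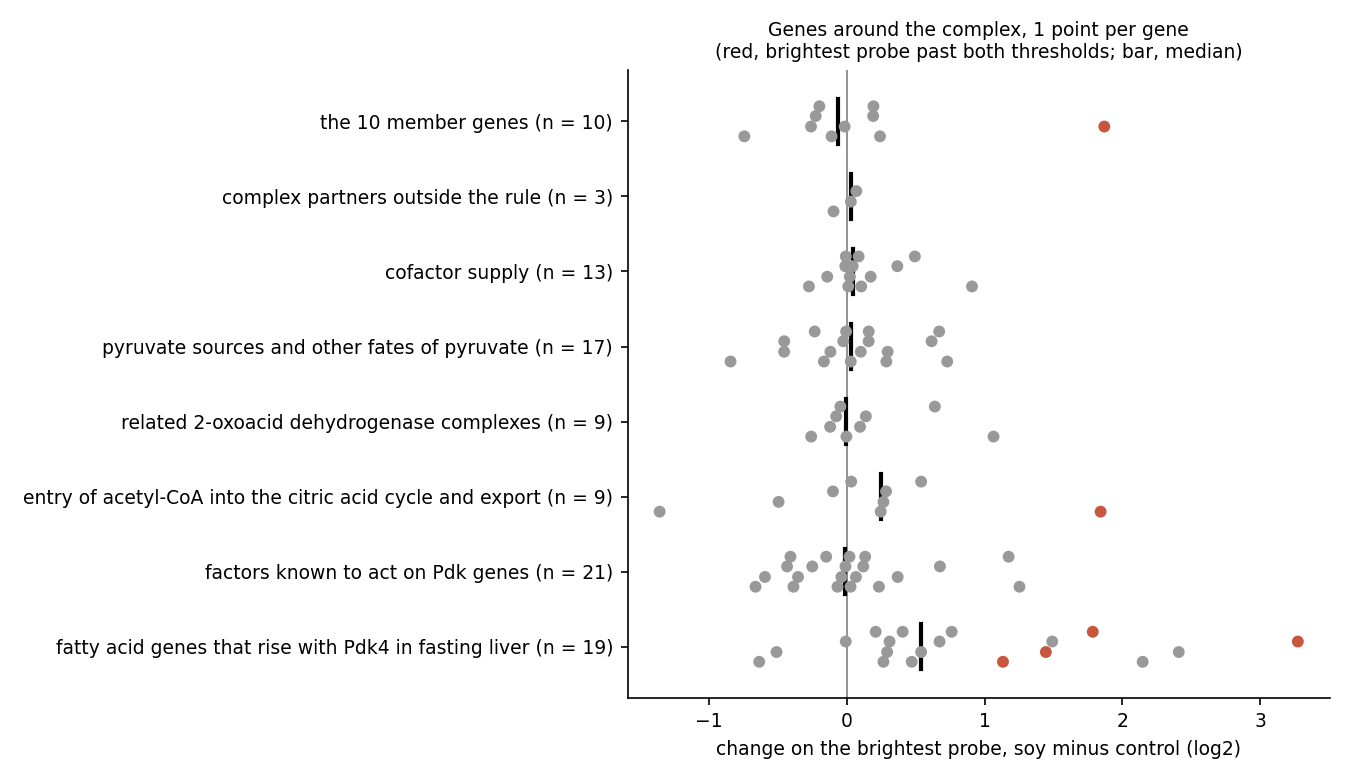
Change on the brightest probe (soy minus control, log2, horizontal axis) of each gene of the family and of 7 lists around it, with 1 point per gene, a bar at the median and red for a brightest probe past both thresholds. Medians lie between -0.06 and 0.25 except that of the fatty acid genes, at 0.54; the calls on dimmer probes of Acss2 and Stat5a are not coloured.

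Fewer of these genes passed in smaller fits. Of the 7 pathway genes that passed, 1 passed with slide as a block, and from 1 to 6 of the pathway genes passed when an array was left out, with 1 for each soy array, 2 without control 1, 5 without control 2 and 6 without control 3. The direction of Crat, Acot1, Acot2, Acaa1b and Cyp4a14 was the same in all these fits and within both slides.

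By its pattern over the 6 arrays, with every gene centred on its own mean, Pdk4 was nearest to Kcnk1, a potassium channel, at a root mean square distance of 0.19 (log2) among 13497 genes well above background on all arrays. Kcnk1 gave 7.26, 7.13 and 6.97 in control and 8.65, 9.05 and 8.66 in soy livers. The next were Adora1, an adenosine receptor (0.24), Clstn3, a calsyntenin (0.25), Hunk, a protein kinase (0.26), and Meig1, known from sperm formation (0.27). The distance was taken over the same arrays that set the changes, so that all 5 are high in soy by construction, and their changes lay between 1.44 and 1.67. With the probes of a gene averaged, the change was 0.62 for Adora1, which no longer passed (adjusted p = 0.0542), and 0.70 for Clstn3, which still did.

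**Figure D4:**
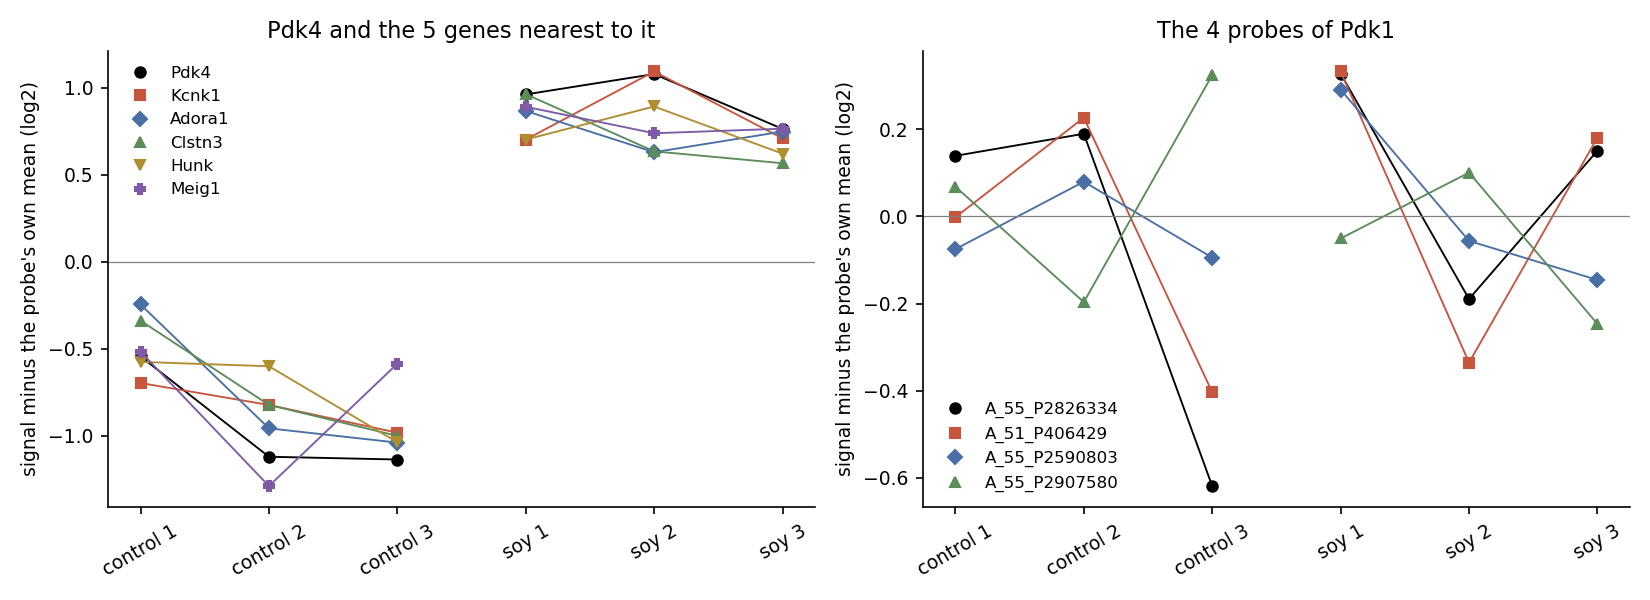
Left, normalized signal minus the mean of the probe (log2, vertical axis) on each of the 6 arrays for Pdk4 and the 5 genes nearest to it, which lie below 0 on the control arrays and above 0 on the soy arrays. Right, the same for the 4 probes of Pdk1, where control 3 is the lowest array on the 2 brightest probes and the highest, at 10.48 before centring, on the probe with the negative change.

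The livers carried the marker genes of their tissue. All 8 hepatocyte markers were well above background on every array and 0 passed, beside 0.532% of all genes, with Serpina1a the brightest. Their summed signals were 2079031, 2140366 and 2082311 in control and 1964125, 1928576 and 1822189 in soy livers, lower on every soy array. A sum is weighted to its brightest probes. By gene, 7 changes were below 0 and 1 above, from -0.76 to 0.46, with a median of -0.16. The part of these differences in the results was not tested. Striated muscle, in which Pdk4 is abundant, gave summed signals over 6 markers of 981, 1029 and 981 in control and 988, 980 and 894 in soy livers, with Tnnt3 the brightest. By the brightest probe, Tnnt3 and Mylpf were well above background on all 6 arrays, Acta1 on the 3 control arrays only, and Ckm, Mb and Myh4 on no array. The part of muscle RNA in the Pdk4 signal was not tested. Of the 6 adipocyte markers, Fabp4 (the brightest), Lep and Cidec were well above background on all 6 arrays, Cfd on 1 control and 1 soy array, and Adipoq and Plin1 on no array. On soy 1, Cidec (11.23) and Cfd (8.19) had their highest value and Fabp4 (10.44) and Adipoq (6.18) their lowest, and these genes were singled out after their values were seen. The adipocyte sums were 5007, 4077 and 4599 in control and 5615, 4288 and 4279 in soy livers.

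No gene passed among the markers of Kupffer cells (brightest Cd5l), endothelial cells (Clec4g), stellate cells (Dcn), cholangiocytes (Spp1) and blood cells (Hba-a1). Of all genes, 0.532% passed. Changes above and below 0 numbered 5 and 1 for Kupffer cells, 2 and 4 for endothelial cells and 1 and 5 for stellate cells. They numbered 3 and 3 for cholangiocytes and 5 and 0 for blood cells. Col1a1, a stellate marker chosen after its values were seen, changed by -0.99 with the groups apart (adjusted p = 0.317). The part of cell composition in the results was not tested. Spots well above background numbered 36366 to 38163 on control and 31308 to 32498 on soy arrays, and the part of this gap in the results was not tested. Of the 16 probes of the family, 14 or 15 were well above background on each array.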

How the data were processed

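Liver RNA of 3 control and 3 soy mice was measured with 1 array per mouse. The authors deposited, per the file headers, output of Agilent Feature Extraction (version 11.5.1.1), with the median intensity of each spot and its local background, not yet normalized, a processed intensity, and marks for spots well above background, saturated or outlying. They also deposited a table of log2 values whose columns share their quantiles, by a method that is not stated, used here as an alternative. The array design was annotated on mm9.

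Median intensities were corrected with normexp (offset 50), quantile normalized without control spots and log2 transformed, outlier spots were left out, and spots of a probe were averaged. The methods name raw median signals, limma and Benjamini-Hochberg adjustment. Soy was compared with control by lmFit and eBayes in limma 3.58.1 (R 4.3.3) over all 56605 probes, and p-values were adjusted over all of them. A call on any 1 probe counted as a call of its gene, and a gene is otherwise given by its brightest probe. Symbols (for 58.3% of probes) came from RefSeq accessions through a GRCm38.p6 table, promoters from RefSeq, and CCAAT and TATAAA were added after a first motif search. A probe well above background on no array of a group is given without a fold. The fit was tested on simulated data. Tables and plots used Python 3.11.15, pandas 2.3.3 and matplotlib 3.10.9.

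The members and lists were chosen with earlier results of these data known. Named were the 10 genes, the genes of each pathway list that passed or else the 3 largest changes among those well above background on all arrays, the brightest gene of each marker list, and the 5 genes nearest to Pdk4, with others said in the text to be chosen after their values were seen. An item is not reported here. The p-values measure the spread between these mice only, and 3 arrays per group limit the precision. As alternatives, the background correction was left out or its offset set to 16, the processed signal was used after scaling by the 75th percentile, quantile normalization was replaced by cyclic loess or by shifting arrays to their 75th percentile, probes not well above background were dropped, outlier spots were retained, eBayes was run with trend and robust settings, probes were averaged by gene, slide or replicate number was a block, the deposited log2 table was fitted, the fold threshold was dropped, and arrays were left out 1 at a time.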

Additional observations from a re-analysis of the deposited data

How the results depend on the processing

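Pdk4 was higher in soy under all 21 alternatives (1.76 to 2.15, adjusted p from 0.00177 to 0.102), but did not pass with slide as a block (1.84) or without any 1 of the soy arrays. With an array left out it ranged from 1.76 to 2.05 and its shift against the other kinases from 1.76 to 2.05. The 198 probes that passed became 77 with an offset of 16, 13138 with the processed signal, 299 with a 75th-percentile shift, 493 among probes well above background, 24 with slide as a block and 25 to 208 with an array left out. With the processed signal 90.8% of calls were higher in soy, beside 59.6%, and the median of all probes was 0.13 (0.13 with the percentile shift), but -0.00 over probes well above background on all arrays; with fewer such spots on soy arrays, signals near background limit what can be compared. Of the 10 genes, 2 passed with the processed signal (Pdk4 and Pdp2, at -0.74, adjusted p = 0.0364), 0 with slide as a block and 0 to 1 with an array left out. The 7 pathway genes became 4, 16, 11 and 1 with the offset of 16, the processed signal, probes above background and slide, and 1 to 6 with an array left out. Why these counts moved was not tested.

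The main fit did not pair mice by replicate number. Deviations of same-numbered arrays from their group means correlated at 0.12, -0.06 and 0.10, and those of differently numbered arrays at -0.21 to 0.10. With 3 arrays per group, and numbers 1 and 3 sharing a slide, these values cannot decide whether the numbers pair the mice. With the replicate block, 77 probes, 3 pathway genes and Pdk4 (1.87, adjusted p = 0.0434) passed.

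Signs turned as follows. Dlat was 0.038 with the processed signal, 0.071 as the mean of its probes, 0.086 with slide as a block and -0.13 to 0.055 with an array left out. Serpina1a was 0.099, 0.089 and 0.13 with the processed signal, percentile shift and cyclic loess, and -0.043 to 0.020 with an array left out. With the percentile shift the signal difference of Pdk3, near background and no measure of fold, was 0.13 and Tnnt3 was 0.034. Pdpr was -0.090, Stat5a 0.31 and Ppara -0.017 as the mean of their probes, and Hba-a1 -0.12 with slide as a block. With an array left out, Pdk1 ranged from -0.069 to 0.34, Dld from -0.011 to 0.13, Pdpr from -0.034 to 0.12, Tnnt3 from -0.084 to 0.019, Fabp4 from -0.26 to 0.066, Ppara from -0.12 to 0.21 and Hba-a1 from -0.066 to 0.50. Within slide 1, Stat5a was 0.029, Tnnt3 0.081 and Hba-a1 -0.13, and within slide 3 Dlat was 0.30, Serpina1a 0.017, Fabp4 0.25 and Hba-a1 -0.094.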
